A study of Mus musculus with 6 samples.

Results

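Collagen chains were compared, in transplanted high-grade serous ovarian tumours of mice, between tumours of animals given AZD7507, an inhibitor of the macrophage growth factor receptor CSF1R, and tumours of animals given vehicle. The members were chosen by name, as every row of the deposited expression table whose Ensembl identifier maps to a symbol made of Col, digits, a and digits, which gave 34 of the table's 16344 genes. The rule itself uses names and no measured value. In the GENCODE M21 annotation 44 mouse genes have such a symbol, and the 10 without a row in the table were Col4a3, Col6a4, Col9a1, Col9a2, Col19a1, Col22a1, Col23a1, Col25a1, Col26a1 and Col28a1.

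In every animal of both groups the murine cell line 60577 had been injected into the peritoneal cavity of syngeneic mice, tumours were left for 21 days, and carboplatin was given in 3 weekly cycles. The protocol then names daily oral AZD7507 for 84 days and collection at the humane endpoint, and the treatment label separates 3 AZD7507 tumours from 3 tumours labelled Vehicle. All tumours come from 1 cell line, no label gives the day of collection or the animal of a tumour, and time to endpoint cannot be told apart from treatment. Libraries are called Vehicle 1 (Ctrl_G4NM), Vehicle 2 (Ctrl_G11L), Vehicle 3 (Ctrl_G21R), AZD7507 1 (AZD_G62R), AZD7507 2 (AZD_G7NM) and AZD7507 3 (AZD_G72R). Values are log2 RPKM, that is, read density per gene length and library size, normalized by the authors with cqn, and group values are mean ± SD with n = 3. The read depth behind them is unknown.

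Collagens are secreted or membrane proteins in which 3 chains wind around each other into a triple helix. Fibrillar collagens such as types I, III and V assemble into the tensile fibres of connective tissue, type IV forms the sheet of basement membranes under epithelium and around vessels, and type VI makes beaded filaments around cells. FACIT collagens decorate fibrils, multiplexins sit at basement membranes, and transmembrane collagens are anchored in the cell surface. In solid tumours most fibrillar collagen is made by fibroblasts, while epithelial, endothelial and mesothelial cells also make type IV chains.

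No collagen chain passed the test between the groups. With limma on the whole table, 0 of 34 chains were higher and 0 of 34 lower at a Benjamini-Hochberg adjusted p under 0.05, where 0.0184% of all genes rose and 0.337% fell. At an unadjusted p under 0.05 there was 1 higher chain, Col4a5, and 1 lower chain, Col12a1, or 2.94% of the chains in each direction against 3.31% and 5.49% of all genes. Both directions together made 5.88% of the chains and 8.8% of all genes. The groups did not overlap for 1 of 34 chains, Col4a5, which was higher, against 7.34% of all genes higher, 8.02% lower and 15.4% in all without overlap. These shares rest on at most 2 chains, too few to be read as a difference from the whole table. The adjusted calls were too few in the table to compare. Of the 34 differences, 23 were below 0 and 11 above, whereas 54.5% of all genes lay above 0. The median difference was -0.11 on the log2 scale for the chains and 0.025 over all genes. Without Vehicle 2 and AZD7507 2, described next, 17 were above and 17 below 0 with a median of 0.0050, where 53.6% of all genes lay above 0. Again 0 chains passed, and 0.00612% of all genes rose and 0.0795% fell. In that comparison of 2 against 2 libraries, 4 chains (Col3a1, Col5a2, Col13a1 and Col24a1) were higher and 2 (Col6a2 and Col20a1) lower at an unadjusted p under 0.05, together 17.6% of the chains. Over all genes the shares were 7.59% higher, 8.77% lower and 16.4% together. Groups did not overlap for 9 chains, 6 higher and 3 lower, against 26.6% of all genes higher, 23.6% lower and 50.2% in all. In bulk tumour RNA, fewer cells of a type and less RNA per cell cannot be told apart.

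Vehicle 2 and AZD7507 2 stood apart from the other libraries before any collagen was considered. Of 11 pancreatic acinar markers 9 had a row, and their mean log2 level was 9.04 in Vehicle 2 and 9.19 in AZD7507 2, but between -3.58 and -0.28 in the other 4 libraries. Correlations between libraries across genes, which are not independent replicates, ran from 0.920 to 0.983 (Pearson). Genes of the ovarian surface and serous lineage were present, with Wt1 between 6.13 and 6.72, Krt19 between 7.17 and 8.08 and Msln between 5.47 and 6.79. Wt1 and Msln are also markers of mesothelium, so their levels do not separate it from tumour. Other epithelial genes were lower, with Epcam between 2.26 and 4.46 and Cldn3 between -0.83 and 2.49. Pax8, a marker of serous carcinoma, lay between -3.89 and -2.09, near the bottom of the table.

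**Figure D1:**
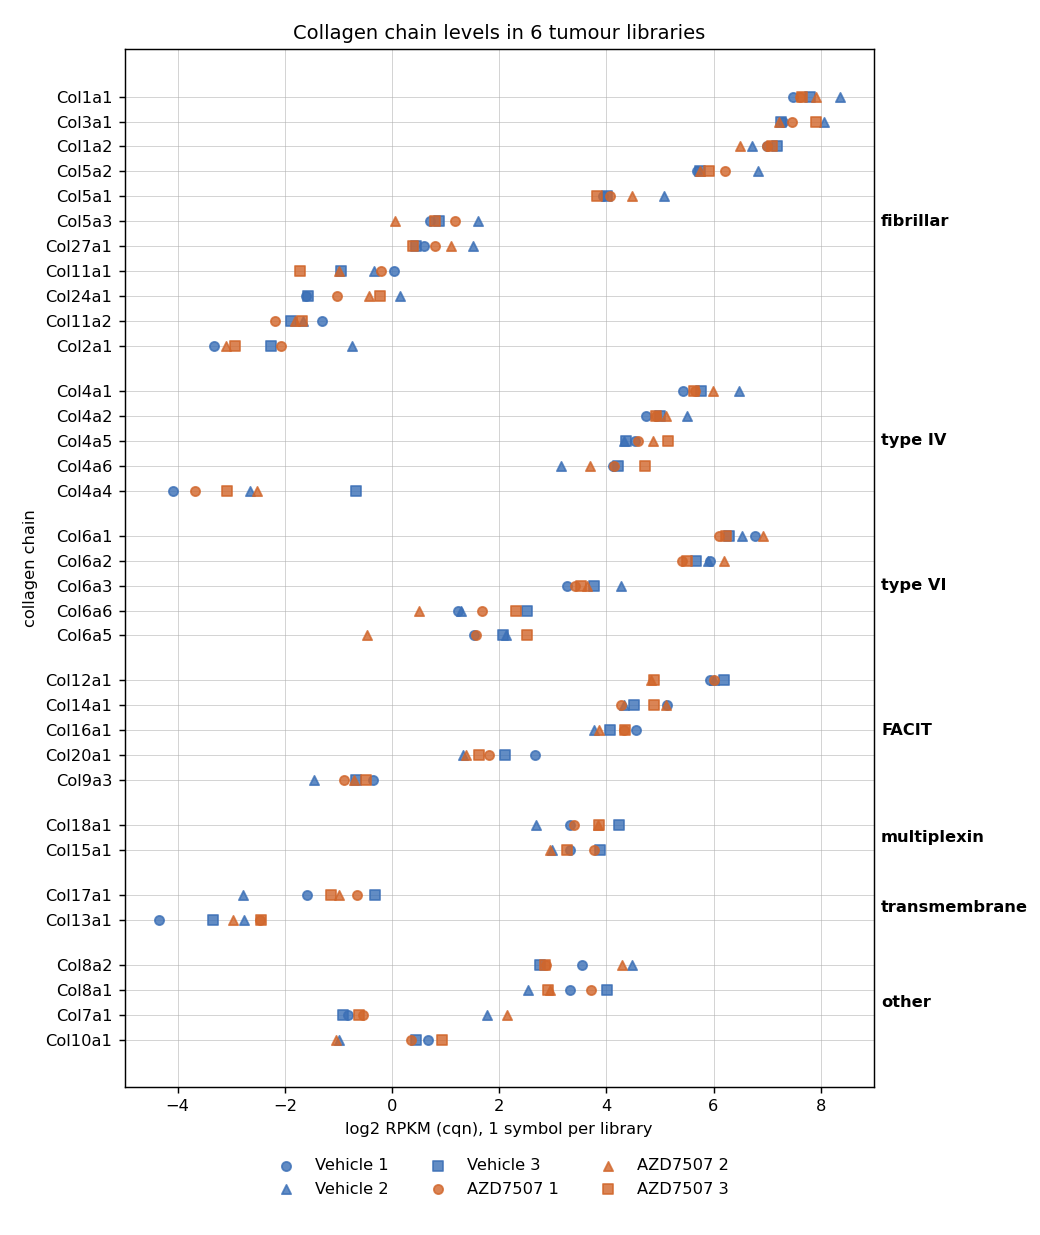
Level of each of the 34 collagen chains (log2 RPKM on the horizontal axis) in the 3 Vehicle (blue) and 3 AZD7507 (orange) libraries, grouped by class, with triangles for the acinar-rich Vehicle 2 and AZD7507 2. Chains span from Col13a1 near -3 to Col1a1 near 8, and blue and orange symbols are mixed for all chains but Col4a5.

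The chains covered a wide range of levels. Their mean log2 RPKM over the 6 libraries was above 5 for 9 chains and below 0 for 8. Col1a1 was highest at 7.80, the 65th most abundant row of the table, followed by Col3a1 at 7.54, Col1a2 at 6.91, Col6a1 at 6.48 and Col5a2 at 6.03. Neighbours in this order mostly lay within their spread: in only 4 of 33 steps was the gap larger than the SD over the 6 libraries of both chains, namely from Col3a1 to Col1a2, from Col1a2 to Col6a1, from Col6a1 to Col5a2 and from Col8a1 to Col20a1. The chains also varied between tumours of 1 group, with a median within-group SD of 0.49 against 0.22 over all genes. The 95% interval of the limma difference stayed within a 2-fold change either way for 17 of the 34 chains and reached beyond it for the other 17.

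On the linear scale, collagen chains made up 0.569% ± 0.093 of the summed RPKM of all genes with vehicle and 0.521% ± 0.016 with AZD7507. The library values were 0.503%, 0.675% and 0.528% with vehicle and 0.504%, 0.525% and 0.536% with AZD7507. Vehicle 2 was thus the 1 library with a raised share, and the other 5 lay close together. Col1a1, Col1a2 and Col3a1, the major chains of types I and III, held 49.3% ± 2.9 of the collagen sum with vehicle and 49.98% ± 4.2 with AZD7507. Fibrillar chains together held 57.9% ± 5.3 and 58.2% ± 4.2, type VI chains 15.4% ± 2.8 and 15.4% ± 4.0, and type IV chains 11.7% ± 0.62 and 12.98% ± 0.68. For FACIT chains the shares were 10.5% ± 2.7 and 8.76% ± 1.7. Transmembrane chains held under 0.1% in each library, at most 0.0857%.

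**Figure D2:**
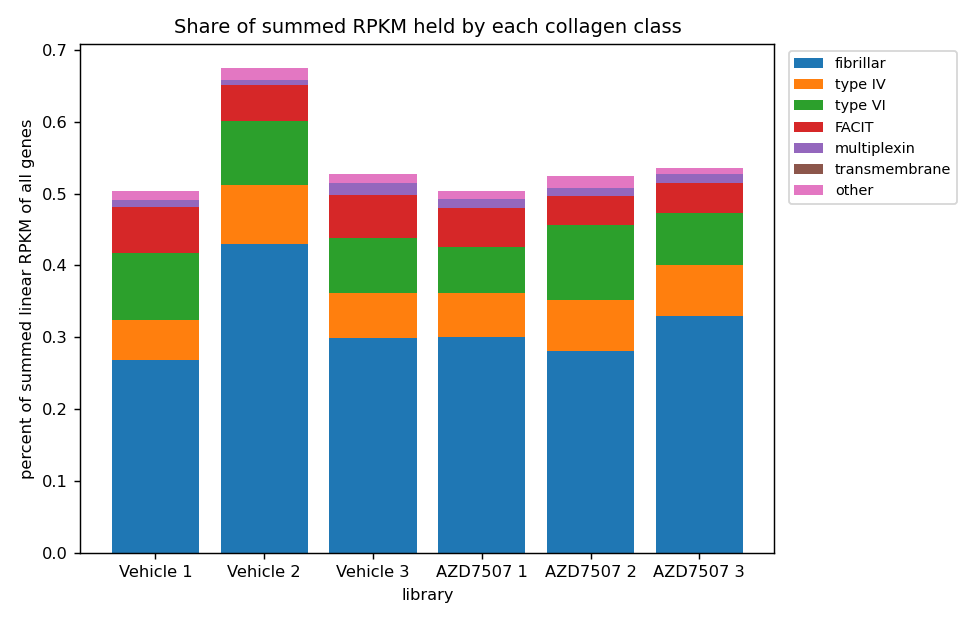
Percent of the summed linear RPKM of all genes (vertical axis) held by the chains of each collagen class in each of the 6 libraries, as stacked bars from 0. The bar of Vehicle 2 reaches 0.675% and the other bars 0.503% to 0.536%.

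Fibrillar chains were all represented, with 11 of 11 listed genes in the table. Col1a1 and Col1a2, whose products combine into type I collagen, differed by less than their spread. Col1a1 (chromosome 11, 94936224 to 94953042 of GRCm38) was at 7.49, 8.35 and 7.80 with vehicle and at 7.61, 7.91 and 7.65 with AZD7507. Vehicle 2 was the highest library and the groups overlapped. The difference was -0.16 (SE 0.23, limma adjusted p 0.89), a ratio of 0.896 with a 95% interval from 0.621 to 1.29. Col1a2 (chromosome 6, 4504814 to 4541544) was at 7.0, 6.71 and 7.18 with vehicle and at 7.0, 6.50 and 7.09 with AZD7507, with the lowest value of each group in the acinar-rich library. Its difference was -0.10 (SE 0.20, limma adjusted p 0.93).

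Col3a1, the chain of type III collagen, and Col5a2, of the type V collagen that nucleates fibrils, are encoded next to each other on chromosome 1 (45311538 to 45349706 and 45374321 to 45503282). Col3a1 was at 7.29, 8.07 and 7.26 with vehicle and at 7.47, 7.21 and 7.92 with AZD7507. The highest library was Vehicle 2 and the next AZD7507 3, and the group means were almost equal (difference -0.0033, SE 0.27, limma adjusted p 0.9983). Col5a2 was at 5.70, 6.83 and 5.75 with vehicle and at 6.22, 5.74 and 5.91 with AZD7507, and differed by -0.14 (SE 0.31, limma adjusted p 0.94). Here too Vehicle 2 alone lay high among the vehicle libraries. Without Vehicle 2 and AZD7507 2 both chains turned positive, at 0.42 for Col3a1 and 0.34 for Col5a2, neither passing (limma adjusted p 0.29 and 0.29). Col5a1, the partner chain of type V, was at 3.94, 5.08 and 4.01 with vehicle and at 4.06, 4.49 and 3.82 with AZD7507, a difference of -0.22, and Col5a3 differed by -0.39.

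The remaining fibrillar chains were low. Col27a1, of cartilage and other tissues, differed by -0.08 at a mean level of 0.81. Means below 0 were found for Col11a1, Col24a1, Col11a2 and Col2a1, whose values may rest on few reads. Col2a1, the main collagen of cartilage, was at -3.33, -0.75 and -2.26 with vehicle and at -2.07, -3.09 and -2.92 with AZD7507. Its difference of -0.58 (SE 0.68, limma adjusted p 0.87) came with Vehicle 2 as the highest library. Col11a1 differed by -0.56, Col11a2 by -0.28 and Col24a1 by 0.44.

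As a class, 10 of 11 fibrillar differences were below 0, with a median of -0.16. Vehicle 2 was the highest of the 6 libraries for 8 of the 11 chains, or 72.7%, against 22.5% of all genes, and the exceptions were Col1a2, Col11a1 and Col11a2. Without Vehicle 2 the signs became 4 below and 7 above 0 with a median of 0.099, and without both acinar-rich libraries 5 below and 6 above with a median of 0.082. Vehicle 2 also stood out for markers of other cells. Its osteoclast list (6 of 8 genes measured; median difference -1.24, 5 of 6 below 0, or -0.019 and 3 of 6 without both acinar-rich libraries) had a mean log2 level of 2.99 against 0.044 to 0.69 in the other 5 libraries, led by the protease genes Ctsk at 6.45 and Mmp9 at 5.94. The fibroblast list (10 of 10 measured) had a mean level of 3.28 in Vehicle 2 and 2.51 to 2.87 in the others. Vehicle 2 was also highest for the osteoblast and cartilage list (2.34 against 1.33 to 1.78) and the smooth muscle and pericyte list (1.54 against 0.61 to 1.33). The same held for the macrophage list (5.25 against 2.16 to 4.63). It was not highest for the endothelial, epithelial, mesothelial, adipocyte or acinar list. The part of these cells in the fibrillar values was not tested.

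**Figure D3:**
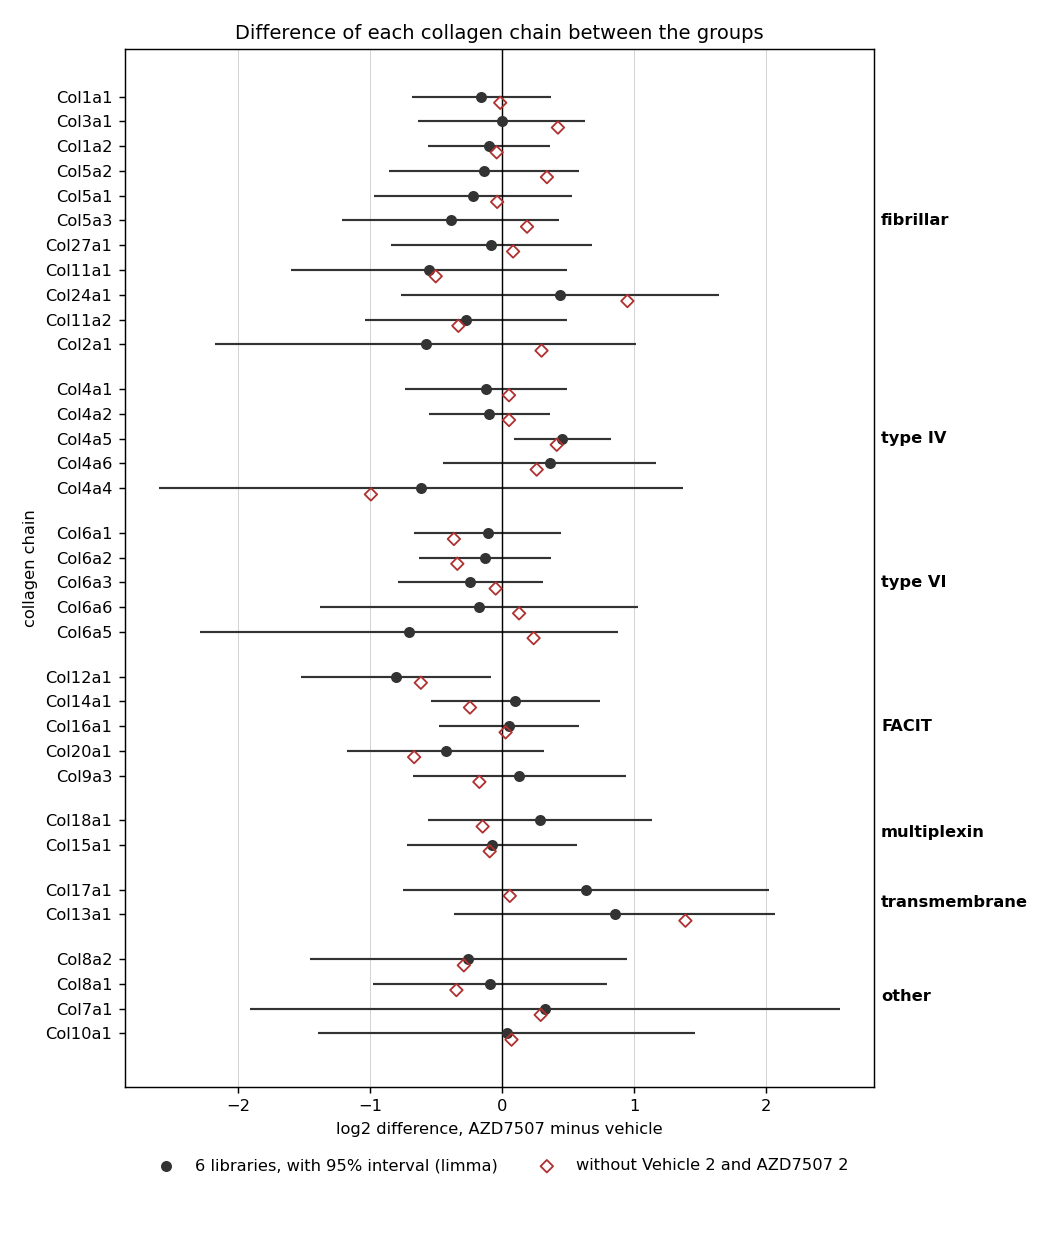
Log2 difference of each collagen chain, AZD7507 minus vehicle (horizontal axis), by class. Black points with bars are the limma estimates and 95% intervals from 6 libraries, and red diamonds are the estimates without Vehicle 2 and AZD7507 2. The interval leaves out 0 for Col4a5 and Col12a1 only. The diamonds of 12 chains, among them Col3a1, Col5a2 and Col2a1, lie on the other side of 0 from the black point.

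Type IV chains are encoded in pairs of genes that lie head to head on opposite strands. The sequences around the start sites of both expressed pairs are given below. The log2 ratio of the chains spanned 0.28 for the first pair and 1.03 for the other over the 6 libraries. Without both acinar-rich libraries it spanned 0.071 and 0.30. Any part of the start-site layout in these ranges was not tested. They are RefSeq promoter windows of GRCm38.p6, 250 bases before to 50 after each start, written 5′ to 3′ on the gene's own strand, with capitals for the GC box GGGCGG, the CCAAT box CCAAT and the TATA box TATAAA on either strand. The windows are Col4a1 at chr8:11312777-11313076 (minus strand), Col4a2 at chr8:11312555-11312854 (plus), Col4a5 at chrX:141475169-141475468 (plus) and Col4a6 at chrX:141474027-141474326 (minus).
Col4a1: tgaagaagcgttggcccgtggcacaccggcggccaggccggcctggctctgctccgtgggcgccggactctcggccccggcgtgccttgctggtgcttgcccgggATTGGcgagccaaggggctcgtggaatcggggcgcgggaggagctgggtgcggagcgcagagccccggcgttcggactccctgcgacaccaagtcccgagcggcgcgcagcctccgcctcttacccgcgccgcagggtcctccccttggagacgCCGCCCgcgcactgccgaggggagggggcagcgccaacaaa
Col4a2: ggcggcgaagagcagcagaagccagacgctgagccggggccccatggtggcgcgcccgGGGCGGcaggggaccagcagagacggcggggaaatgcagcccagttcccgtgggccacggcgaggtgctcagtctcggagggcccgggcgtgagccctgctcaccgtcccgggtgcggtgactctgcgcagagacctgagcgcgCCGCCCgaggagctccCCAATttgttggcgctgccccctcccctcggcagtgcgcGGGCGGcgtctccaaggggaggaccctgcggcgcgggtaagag
Col4a5: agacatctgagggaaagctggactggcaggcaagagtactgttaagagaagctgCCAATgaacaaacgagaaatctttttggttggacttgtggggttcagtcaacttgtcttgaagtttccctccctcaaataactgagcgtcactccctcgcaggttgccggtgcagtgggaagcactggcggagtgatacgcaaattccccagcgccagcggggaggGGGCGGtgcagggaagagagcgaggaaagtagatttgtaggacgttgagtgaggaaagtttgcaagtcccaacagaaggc
Col4a6: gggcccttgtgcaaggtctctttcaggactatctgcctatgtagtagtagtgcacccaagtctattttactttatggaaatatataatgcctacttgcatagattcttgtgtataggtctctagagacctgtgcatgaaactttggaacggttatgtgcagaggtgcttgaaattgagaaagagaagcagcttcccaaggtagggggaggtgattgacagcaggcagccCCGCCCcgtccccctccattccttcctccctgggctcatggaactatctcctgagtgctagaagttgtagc
The start sites of Col4a1 and Col4a2 are 21 bases apart and their windows share 78 bases, while those of Col4a5 and Col4a6 are 1343 bases apart. A GC box was found in all 4 windows, in 63.3% of the 30 collagen windows and in 35.7% of all 32851 windows of this length. The box of Col4a1 lies in the shared bases and is the same site as 1 of the boxes of Col4a2. Col6a2 and Col18a1 each have more than 1 window among the 30. A CCAAT box was found in the windows of Col4a1, Col4a2 and Col4a5, in 33.3% of collagen windows and in 37.4% of all windows. A TATA box was in none of the 4, in 16.7% of collagen windows and in 13.6% of all windows. Promoter windows were matched for 28 of the 34 chains, and Col12a1, Col14a1, Col1a1, Col2a1, Col5a2 and Col9a3 had no entry.

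Col4a1 and Col4a2, the chains of the common basement membrane network, differed by less than their spread. Col4a1 (chromosome 8, 11198423 to 11312826) was at 5.42, 6.47 and 5.76 with vehicle and at 5.66, 6.0 and 5.63 with AZD7507. The acinar-rich library was the highest of each group. The difference was -0.12 (SE 0.26, limma adjusted p 0.93), a ratio of 0.918 with a 95% interval from 0.599 to 1.41. Col4a2 (chromosome 8, 11312805 to 11449287) was at 4.74, 5.51 and 5.01 with vehicle and at 4.92, 5.11 and 4.93 with AZD7507, and differed by -0.10 (SE 0.20, limma adjusted p 0.93). Its libraries took nearly the order of Col4a1. Their first exons overlap on opposite strands, and since the strand setting was not given in the sources used here, reads from that overlap cannot be told apart.

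Col4a5, whose chain forms networks in kidney and several other epithelial basement membranes, was the 1 chain whose groups did not overlap. It lies on the X chromosome (141475385 to 141689234) and was at 4.54, 4.33 and 4.37 with vehicle and at 4.59, 4.87 and 5.15 with AZD7507. The gap between the highest vehicle and the lowest AZD7507 library was small. The difference was 0.46 (SE 0.16), a ratio of 1.37 with a 95% interval from 1.06 to 1.77, and it did not pass (limma unadjusted p 0.021, adjusted p 0.44). Across the fits without 1 library the difference ran from 0.32 to 0.59, and without both acinar-rich libraries it was 0.41. Its neighbour Col4a6 was at 4.12, 3.15 and 4.22 with vehicle and at 4.14, 3.70 and 4.72 with AZD7507, that is, 0.36 higher (SE 0.34, limma adjusted p 0.84) with overlapping groups. Epithelial and mesothelial markers lay in the same direction as Col4a5: 10 of 10 measured epithelial genes and 6 of 7 mesothelial genes had differences above 0, with medians of 0.30 and 0.36, and none passed, where 54.5% of all genes lay above 0. Without both acinar-rich libraries 7 of 10 epithelial genes (median 0.24) and 7 of 7 mesothelial genes (median 0.18) were above 0. Wt1 is in both lists. Most differences were also above 0 for endothelial (7 of 8), acinar (9 of 9) and adipocyte (3 of 4) genes. The same held for smooth muscle and pericyte (6 of 9) and osteoblast and cartilage (3 of 5) genes. Fewer were above 0 for fibroblast (3 of 10), macrophage (0 of 10) and osteoclast (1 of 6) genes. The part of any of these cells in the Col4a5 value was not tested. Col4a4 was near the bottom of the table, at -4.09, -2.65 and -0.68 with vehicle and at -3.68, -2.51 and -3.07 with AZD7507, and its difference of -0.62 (SE 0.85, limma adjusted p 0.89) had an interval from -2.60 to 1.37. The median of the 5 type IV differences was -0.10, with 2 above 0, and without both acinar-rich libraries it was 0.051, with 4 above 0.

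Among the 5 type VI chains, all differences were below 0, with a median of -0.17 and none passing. Without both acinar-rich libraries 3 were below and 2 above 0, with a median of -0.050. Col6a1 (chromosome 10, 76708792 to 76726168), 1 of the 3 core chains, was at 6.78, 6.53 and 6.30 with vehicle and at 6.11, 6.93 and 6.23 with AZD7507. AZD7507 2 was the highest library and the other AZD7507 libraries were the lowest. The difference was -0.11 (SE 0.24, limma adjusted p 0.93), a ratio of 0.926 with a 95% interval from 0.630 to 1.36. Col6a2 was at 5.93, 5.89 and 5.67 with vehicle and at 5.41, 6.19 and 5.51 with AZD7507, and differed by -0.13, with the libraries in the same order as for Col6a1. Without Vehicle 2 and AZD7507 2 the groups separated for both, with differences of -0.37 and -0.34 (limma adjusted p 0.36 and 0.27, neither passing), where 23.6% of all genes lay lower without overlap. Col6a3, the largest core chain, was at 3.27, 4.27 and 3.76 with vehicle and at 3.41, 3.64 and 3.52 with AZD7507, a difference of -0.24.

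Col6a5 and Col6a6, alternative chains of type VI, had a low library in AZD7507 2. Col6a5 was at 1.54, 2.12 and 2.07 with vehicle and at 1.56, -0.46 and 2.52 with AZD7507. Its difference of -0.70 (SE 0.68, limma adjusted p 0.84) became 0.24 without both acinar-rich libraries and 0.13 without AZD7507 2 alone. Col6a6 was at 1.24, 1.28 and 2.51 with vehicle and at 1.68, 0.50 and 2.32 with AZD7507, a difference of -0.17.

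In the FACIT class Col12a1 had the lowest unadjusted p of the lower chains. Its product binds along type I collagen fibrils. Col12a1 (chromosome 9, 79598991 to 79718831) was at 5.94, 6.01 and 6.19 with vehicle and at 6.02, 4.83 and 4.89 with AZD7507. AZD7507 1 lay within the vehicle range and the other AZD7507 libraries below it, so the groups overlapped. The difference was -0.81 (SE 0.31), a ratio of 0.572 with a 95% interval from 0.347 to 0.941, and did not pass (limma unadjusted p 0.033, adjusted p 0.51). It ran from -1.19 to -0.60 when 1 library was left out, the far end being the fit without AZD7507 1, where the adjusted p was 0.077, and was -0.62 without both acinar-rich libraries.

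The other FACIT chains showed smaller differences. Col14a1, another fibril-associated chain, was at 5.14, 4.32 and 4.52 with vehicle and at 4.28, 5.11 and 4.89 with AZD7507, a difference of 0.10. Col16a1 differed by 0.051 at a mean level of 4.16, and Col9a3, a cartilage chain, by 0.13 at -0.76. Col20a1 was at 2.66, 1.33 and 2.10 with vehicle and at 1.80, 1.38 and 1.62 with AZD7507, and differed by -0.43 (SE 0.32, limma adjusted p 0.78). The difference was -0.67 without both acinar-rich libraries (limma adjusted p 0.23). Of the 5 FACIT differences 3 were above and 2 below 0, with a median of 0.051. Without both acinar-rich libraries the direction turned, with 1 above and 4 below 0 and a median of -0.24.

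The multiplexin Col18a1, whose product releases endostatin, was at 3.32, 2.68 and 4.24 with vehicle and at 3.40, 3.84 and 3.86 with AZD7507. Vehicle libraries were both the lowest and the highest, and the difference was 0.29 (SE 0.36, limma adjusted p 0.88), or -0.15 without both acinar-rich libraries. Col15a1, the other multiplexin, differed by -0.08 at a mean level of 3.36. Of the transmembrane chains, Col17a1, a hemidesmosome component of stratified epithelium, was at -1.58, -2.77 and -0.32 with vehicle and at -0.65, -0.98 and -1.14 with AZD7507, and differed by 0.64 (SE 0.59, limma adjusted p 0.83). Col13a1, found at cell adhesion sites, was at -4.35, -2.76 and -3.35 with vehicle and at -2.47, -2.97 and -2.45 with AZD7507. Its difference of 0.85 (SE 0.52, limma adjusted p 0.72) was the largest positive value among the 34 chains, in the chain with the lowest mean level.

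Of the remaining chains, Col8a1 and Col8a2 form short-chain networks under endothelium and other epithelia. Col8a2 was at 3.55, 4.47 and 2.77 with vehicle and at 2.88, 4.28 and 2.85 with AZD7507, highest in the acinar-rich library of each group. The difference was -0.26 (SE 0.51, limma adjusted p 0.93). Col8a1 was at 3.31, 2.54 and 4.01 with vehicle and at 3.71, 2.95 and 2.92 with AZD7507, a difference of -0.09. Col7a1, of the anchoring fibrils that tie epithelium to the tissue beneath, was at -0.82, 1.77 and -0.92 with vehicle and at -0.55, 2.15 and -0.61 with AZD7507. Its acinar-rich libraries lay far above the others, and the difference between the groups was 0.32 (SE 0.95, limma adjusted p 0.95). Col10a1, the hypertrophic cartilage chain, was low in the same libraries, at 0.68, -1.0 and 0.46 with vehicle and at 0.35, -1.04 and 0.93 with AZD7507.

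The acinar-rich library of each group was set against the mean of the other 2 libraries of its group. Col7a1 was higher by 2.63 in Vehicle 2 and by 2.73 in AZD7507 2, and Col8a2 by 1.32 and 1.42. Col10a1 lay at -1.56 and -1.68, Col4a6 at -1.02 and -0.73 and Col8a1 at -1.12 and -0.36. These 5 chains were named after their values had been seen, so their shared sign is not a result. The size was close for Col7a1, Col8a2 and Col10a1 but not for Col8a1. Other chains with large deviations had opposite signs. They included Col2a1 (2.04 in Vehicle 2 and -0.60 in AZD7507 2), Col5a2 (1.11 and -0.32) and Col13a1 (1.09 and -0.51). Col6a5 (0.32 and -2.51) and Col18a1 (-1.09 and 0.21) were others. Fibrillar chains did not share a sign as a class: their median deviation was 0.81 in Vehicle 2 and -0.039 in AZD7507 2, and 5 of 11 had the same sign in both. Over the 34 chains 21, or 61.8%, had the same sign, close to 61.3% of all genes. The Pearson correlation between both deviations was 0.41 over the 34 chains and 0.55 over all genes, as a description across genes.

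**Figure D4:**
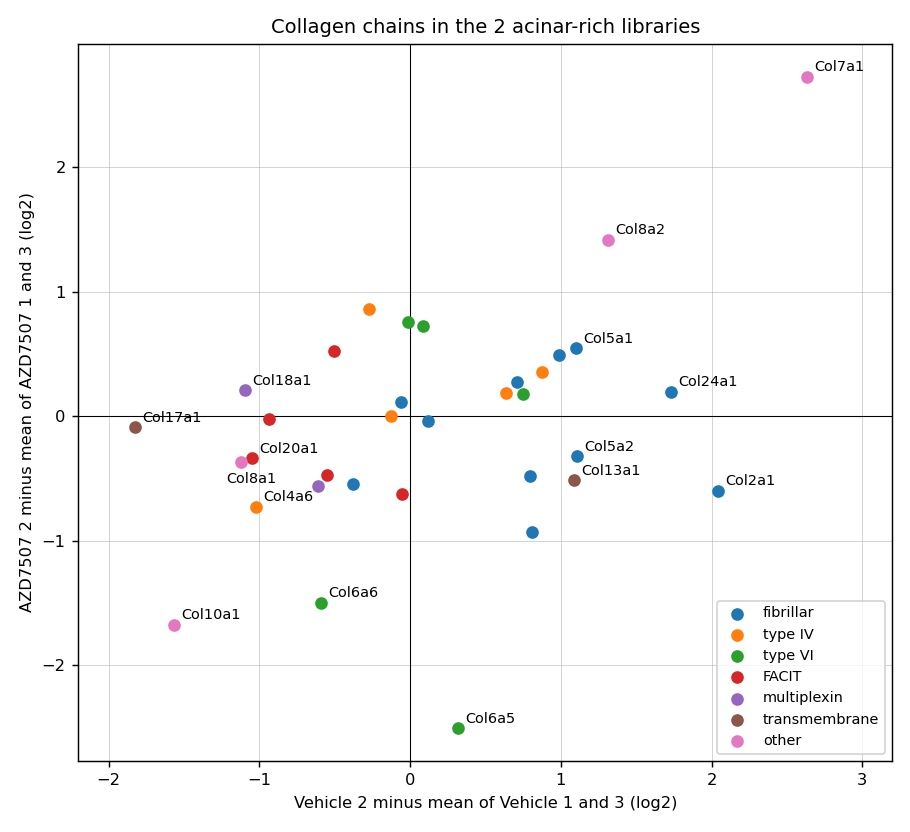
Each point is 1 of the 34 collagen chains, placed by its log2 deviation in Vehicle 2 from the mean of Vehicle 1 and 3 (horizontal axis) and in AZD7507 2 from the mean of AZD7507 1 and 3 (vertical axis), coloured by class. Col7a1 and Col8a2 lie high in both libraries, Col10a1 low in both, and most fibrillar chains right of 0 with no common height.

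Ratios between chains were then compared within each library, as the log2 level of 1 chain minus that of its partner. For the 8 pairs, an exact permutation test between the groups (6 libraries, 2-sided) gave p from 0.7 to 1.0, adjusted p 1.0 for each pair. The smallest possible p in this design is 0.10, which is above the threshold used here. No pair could therefore pass, whatever its values, and the test cannot decide whether a ratio differed between the groups. Col4a1 minus Col4a2 was at 0.68, 0.96 and 0.75 with vehicle and at 0.74, 0.89 and 0.70 with AZD7507, a range of 0.28 over the 6 libraries and of 0.071 without the acinar-rich libraries, which were the highest. Col6a1 minus Col6a2 had the narrowest range over the 6 libraries, 0.22, from 0.62 to 0.84. Over the same libraries Col6a1 alone had an SD of 0.32 and its ratio to Col6a2 one of 0.080, and Col4a1 alone had 0.37 and its ratio to Col4a2 one of 0.11. The chains of both pairs therefore varied together from tumour to tumour.

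The other pairs had wider ranges over the 6 libraries. Col1a1 minus Col1a2 was at 0.49, 1.64 and 0.62 with vehicle and at 0.61, 1.41 and 0.56 with AZD7507. The acinar-rich libraries lay apart, at linear ratios of 3.12 and 2.65, while the other 4 ran from 1.40 to 1.54. Over those 4 the log2 range was 0.14, narrower than the 0.22 of Col6a1 minus Col6a2. Col4a5 minus Col4a6 also had both acinar-rich libraries highest, at 0.42, 1.18 and 0.15 with vehicle and 0.45, 1.17 and 0.43 with AZD7507, with a range of 0.30 over the other 4 libraries. For Col8a1 minus Col8a2 the values were -0.23, -1.93 and 1.24 with vehicle and 0.83, -1.33 and 0.07 with AZD7507, the widest range of the 8 pairs at 3.17. The acinar-rich libraries were the lowest, and without them the range was 1.47. Col5a1 minus Col5a2 was at -1.75, -1.76 and -1.74 with vehicle and spread more with AZD7507, at -2.16, -1.26 and -2.09. Col6a3 minus Col6a1 ran from -3.51 in Vehicle 1 to -2.26 in Vehicle 2, and Col3a1 minus Col1a1 from -0.70 in AZD7507 2 to 0.27 in AZD7507 3. The part of library composition in these ratios was not tested.

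**Figure D5:**
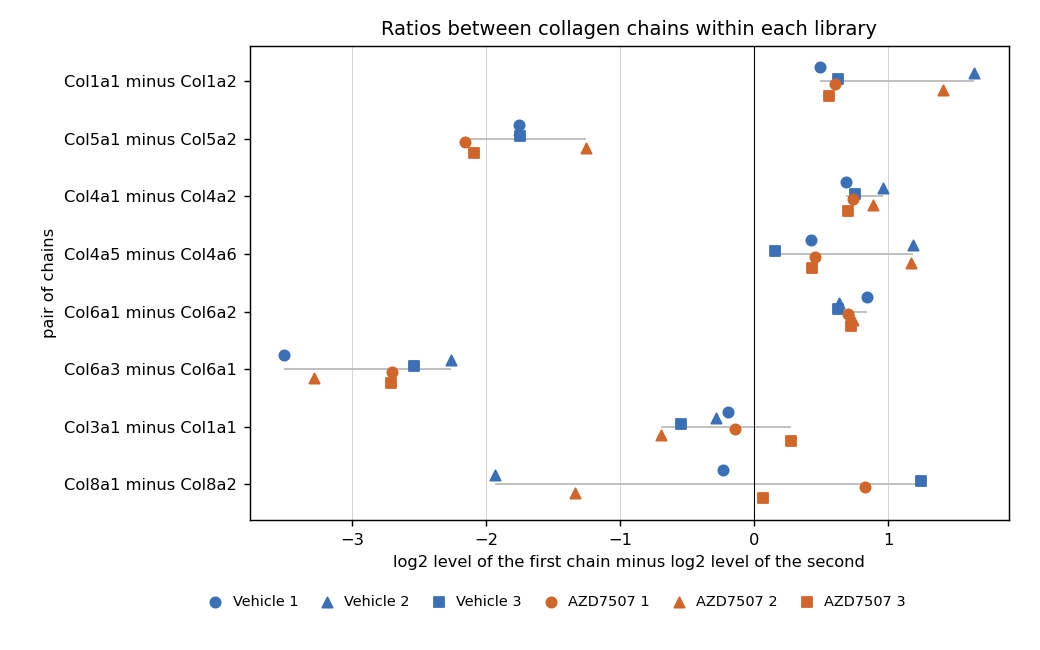
Log2 level of the first chain minus that of the second (horizontal axis) for 8 pairs of collagen chains, 1 symbol per library, with a grey line over the range. Pairs Col4a1 minus Col4a2 and Col6a1 minus Col6a2 span 0.28 and 0.22. The triangles of Vehicle 2 and AZD7507 2 lie apart for Col1a1 minus Col1a2, Col4a5 minus Col4a6 and Col8a1 minus Col8a2.

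Genes that make, bind, sense and degrade collagen were taken from 5 lists. Among 21 of 21 folding and hydroxylation genes 0 passed, 15 differences were above 0 and the median was 0.13. Serpinh1, the collagen chaperone HSP47, was at 6.33, 6.32 and 6.22 with vehicle and at 6.51, 6.60 and 6.65 with AZD7507, a difference of 0.30 without overlap (limma adjusted p 0.48). Colgalt1, a collagen galactosyltransferase, differed by -0.27 and Sec24d, of the vesicle coat that exports procollagen, by 0.31. Among 12 of 13 genes of procollagen cleavage and crosslinking 0 passed and the median was -0.011, or 0.25 without both acinar-rich libraries, with Adamts14, a procollagen N-proteinase, at a difference of 0.69, Loxl3, a lysyl oxidase, at -0.38 and Pcolce2, an enhancer of C-proteinase, at -1.25. Of 13 of 14 fibril partners 0 passed and 9 differences were below 0, with a median of -0.26, or -0.10 without both acinar-rich libraries. The tenascin gene Tnxb differed by -0.76, Thbs1 by -0.55 and the fibromodulin gene Fmod by -0.64.

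Collagen receptors were the list with a call. Lair1, an inhibitory receptor of leukocytes that binds collagen, was at 2.09, 1.98 and 1.75 with vehicle and at 0.30, -0.17 and -0.54 with AZD7507. It fell by 2.08 (SE 0.25, limma adjusted p 0.032), and the groups did not overlap. The call was lost without Vehicle 1, Vehicle 2, Vehicle 3, AZD7507 2 or AZD7507 3 (limma adjusted p 0.16, 0.093, 0.13, 0.10 and 0.078) and without both acinar-rich libraries (0.099), while the difference ran from -2.30 to -1.87 over the fits without 1 library. It was 1 of 11 measured genes in a list of 12, in a table where 0.337% of all genes fell. Of the 11 differences 8 were below 0, with a median of -0.17, and without both acinar-rich libraries 6 were. Mrc1, the macrophage mannose receptor, which takes up collagen, was at 3.78, 4.76 and 3.76 with vehicle and at 2.72, 2.29 and 0.91 with AZD7507 and did not pass (difference -2.13, limma adjusted p 0.18). Ddr1, a collagen-binding kinase of epithelium, differed by 0.25. The macrophage list, which holds Mrc1, lay in the same direction. Of its 10 genes 10 were below 0 (median -2.32) and 6 fell, against 0.337% of all genes, with a mean level of 4.58 to 5.25 with vehicle and 2.16 to 3.13 with AZD7507. Cx3cr1 fell by 3.18, C1qa fell by 2.56 and Adgre1 fell by 2.28 on the log2 scale, with limma adjusted p of 0.021 for each. Of the 6 calls 2 were made without AZD7507 1, and 0 without any other single library or without both acinar-rich libraries, where the list median was -2.24. The collagenase and gelatinase list also holds the inhibitor genes Timp1, Timp2 and Timp3. Of its 9 of 10 measured genes 0 passed, with a median over enzymes and inhibitors of -0.0070, or 0.23 without both acinar-rich libraries. Differences were above 0 for 4 genes, namely these inhibitors and Mmp13, and below 0 for 5. In that list Ctsk differed by -1.24 and Mmp9 by -1.78, both with Vehicle 2 as the outlying library, and the inhibitor gene Timp1 by 0.35.

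No marker list other than that of macrophages had a call. In the fibroblast list the median difference was -0.26, or -0.19 without both acinar-rich libraries, with 7 genes below and 3 above 0. Mfap5 differed by -0.52, Pi16 by -0.61 and Pdgfrb by -0.46, and the genes above 0 were Thy1 at 0.42, Dcn at 0.22 and Fbln1 at 0.13. Smooth muscle and pericyte genes (9 of 9 measured) had a median of 0.048, or -0.0013 without both acinar-rich libraries, with Cspg4 at -0.61, Actg2 at 0.67 and Notch3 at -0.18. Endothelial genes (8 of 8) had 0.15, or 0.073 without both, and Cldn5 differed by -0.47, Esam by 0.41 and Kdr by 0.30. In the epithelial list Krt18 differed by 0.41, Krt8 by 0.39 and Cldn3 by 1.19, and in the mesothelial list Gpm6a by 0.67, Rspo1 by 0.36 and Upk3b by 0.37. Adipocyte genes (4 of 7) had a median of 0.59, with Lpl at 0.49, Cfd at 0.84 and Fabp4 at -0.36. In the osteoclast list Dcstamp differed by -2.59, Calcr by 1.57 and Atp6v0d2 by -1.25. Osteoblast and cartilage genes (5 of 10) had a median of 0.085, or 0.25 without both, with Sox9 at 0.31, Comp at -0.72 and Runx2 at 0.26. The acinar list had a median of 0.63 and Prss2 differed by 1.21, Ctrb1 by 0.93 and Cela3b by 0.80, and of 7 skeletal muscle genes only Actn3 had a row, at 0.43.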

How the data were processed

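RNA of 3 AZD7507 and 3 Vehicle tumours was sequenced from Ribozero libraries, per the labels' protocols. The deposited table holds log2 RPKM values for 16344 genes that the authors normalized with cqn, per the name of the deposited table; the log2 scale was read from the values. BWA 0.7.15-r1140, HTSeq and the builds mm10 and GRCm38 are named in the submitters' processing notes, with no role given. The annotation release, strand setting and low-value filter are not given in the sources used here. cqn adjusts for length and GC content and makes the distributions of the libraries alike, which hides any change in total RNA. Without counts the depth is unknown, no counting interval is given, and values below 0 may rest on few reads.

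Symbols were matched for 16306 identifiers. Coordinates are GRCm38 from GENCODE M21, which may not be the authors' release, and promoter windows are from RefSeq on GRCm38.p6. For 10 of the 34 chains an exon overlaps an exon of another annotated gene.

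The whole table was fitted with limma 3.58.1 in R 4.3.3 (trended, robust prior, no pseudocount, no filter), AZD7507 minus vehicle, with Benjamini-Hochberg adjustment over all genes and a 2-sided threshold of 0.05. The fit was tested on simulated data with independent normal noise for each gene. That setting holds no shift of whole libraries such as the acinar-rich ones show, so it does not cover them. Replicates were numbered in record order and pair nothing. The labels name no batch, and nothing says which animal a tumour came from, so the spread behind each p-value is that between these samples and may be technical. Members, classes and lists were chosen with earlier results of these data known. Values in each library are given for chains with an unadjusted p under 0.05, the highest and the most different chain of each class and the 5 most abundant chains. In each other list the 3 genes with the smallest unadjusted p are named. Further chains and genes with values per library were added once their values had been seen. As alternatives, the fit was repeated with a constant prior, a minimum mean of 0, a pseudocount of 1 or 0.1, median centring, quantile normalization, array weights, leaving out each library, and leaving out both acinar-rich libraries.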

Additional observations from a re-analysis of the deposited data

How the results depend on the processing

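No collagen chain passed under any of the 14 alternatives run, and the lowest limma adjusted p among chains was 0.077, for Col12a1 without AZD7507 1. Signs were less stable: 9 of 34 chains kept theirs in each alternative that fitted them, namely Col4a5, Col4a6, Col12a1 and Col20a1 in all 14, and Col11a1, Col11a2, Col13a1, Col17a1 and Col24a1 in the 13 other than the minimum mean of 0, which left them out. The constant prior, the minimum mean of 0 (26 chains left), both pseudocounts, quantile normalization and median centring changed the sign of 0 chains. With array weights 8 did, at Col10a1 -0.029, Col14a1 -0.090, Col18a1 -0.21, Col27a1 0.12, Col3a1 0.26, Col5a2 0.22, Col5a3 0.0068, Col9a3 -0.082. Without both acinar-rich libraries 12 did, at Col14a1 -0.24, Col18a1 -0.15, Col27a1 0.082, Col2a1 0.30, Col3a1 0.42, Col4a1 0.051, Col4a2 0.051, Col5a2 0.34, Col5a3 0.19, Col6a5 0.24, Col6a6 0.13, Col9a3 -0.17. Chain ratios that changed sign there were Col1a1 minus Col1a2 0.027, Col6a1 minus Col6a2 -0.026, Col6a3 minus Col6a1 0.32, Col8a1 minus Col8a2 -0.056. When 1 library was left out, the most sign changes, 15, came without Vehicle 2. The ranges of differences that changed sign were Col10a1 (-0.49 to 0.59), Col14a1 (-0.077 to 0.34), Col15a1 (-0.30 to 0.16), Col16a1 (-0.13 to 0.27), Col18a1 (-0.079 to 0.70), Col1a1 (-0.36 to 0.078), Col1a2 (-0.22 to 0.084), Col27a1 (-0.28 to 0.25), Col2a1 (-1.19 to 0.10), Col3a1 (-0.20 to 0.26), Col4a1 (-0.35 to 0.17), Col4a2 (-0.27 to 0.11), Col4a4 (-1.42 to 0.28), Col5a1 (-0.42 to 0.14), Col5a2 (-0.34 to 0.23), Col6a1 (-0.36 to 0.046), Col6a2 (-0.37 to 0.018), Col6a3 (-0.49 to 0.0090), Col6a5 (-1.36 to 0.13), Col6a6 (-0.59 to 0.32), Col7a1 (-0.59 to 1.2), Col8a1 (-0.47 to 0.27), Col8a2 (-0.73 to 0.18), Col9a3 (-0.18 to 0.37). For ratios the ranges were Col1a1 minus Col1a2 (-0.34 to 0.30), Col5a1 minus Col5a2 (-0.37 to 0.078), Col4a1 minus Col4a2 (-0.083 to 0.056), Col4a5 minus Col4a6 (-0.15 to 0.39), Col6a1 minus Col6a2 (-0.022 to 0.088), Col6a3 minus Col6a1 (-0.50 to 0.12), Col3a1 minus Col1a1 (-0.076 to 0.41), Col8a1 minus Col8a2 (-0.65 to 0.94). Since no chain passed and no ratio could pass, a changed sign is a change of an uncalled value, and the cause was not tested.

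The median of type IV chains (-0.10) ran from -0.27 to 0.28 when 1 library was left out, and was 0.13 with the minimum mean of 0, where fewer chains entered. The medians of the fibrillar, FACIT, type VI and remaining short-chain and anchoring classes and of the 34 chains moved as well. All but that of type VI changed sign in some alternative. When 1 library was left out, the fibrillar median (-0.16) ran from -0.33 to 0.099 and the FACIT median (0.051) from -0.18 to 0.27. The FACIT median was -0.19 with the minimum mean of 0 and -0.24 without both acinar-rich libraries. Transmembrane and multiplexin classes, of 2 chains each, were not assessed in this way, and the transmembrane median went from 0.74 to 0.11 with a pseudocount of 1. Over all genes, 3 rose and 55 fell. There were 1 higher with the constant prior, 14 higher and 143 lower with array weights, 1 higher and 13 lower without both acinar-rich libraries, and, without 1 library, 0 higher and 0 to 14 lower. No paired analysis was possible because the labels give no replicate numbers that tumours of both groups share. The depth is unknown, so no detection limit could be set for low chains such as Col13a1, Col4a4 and Col2a1.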
